A study of Homo sapiens with 6 samples.

Results

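Genes of cholesterol synthesis, of its control by the SREBP transcription factors, of sterol transport and of oxysterol metabolism were compared between parental and onvansertib-resistant H526 cells. The 36 genes were taken by name from the 62710 genes analysed, and every one of them had a row. H526 is a human small cell lung cancer (SCLC) line. Onvansertib inhibits polo-like kinase 1, a kinase of mitosis. Resistant cells had been grown for over a year in onvansertib raised stepwise from 10 to 75 nM, whereas parental H526 cells stood without that selection as the control. RNA was harvested at 3 separate times from each, giving 3 parental libraries (numbered 1 to 3) and 3 resistant libraries (numbered 7 to 9), all from 1 cell line and 1 selected culture, so that p-values measure the spread between these harvests. Whether the drug was present at harvest is not given in the sources used here, and long growth in it cannot be told apart from resistance itself.

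Animal cells build cholesterol from acetyl-CoA, first through mevalonate to isoprenoid units and then, after 2 of the larger units are joined to squalene, through ring closure and a series of demethylations and reductions. *SREBF1* and *SREBF2* encode the SREBP transcription factors, which the escort protein SCAP carries out of the endoplasmic reticulum when sterols are scarce and which the INSIG proteins hold back when sterols are plentiful. Hydroxylated cholesterols, the oxysterols, bind INSIG and the LXR nuclear receptors, and enzymes such as CYP7B1 convert them further towards bile acids.

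The deposited values are gene counts that the authors normalized with DESeq2, and were compared as log2(value + 1) with limma, Benjamini-Hochberg adjusted over all 16347 genes with a mean of at least 10. A log2 fold change above 0 means a higher value in the resistant group, and SE is its standard error. The libraries held between 22324048 and 28476837 reads, estimated from the value of a single read. The detection limit was set at 3 reads, which averaged 2.83 in parental and 3.16 in resistant libraries, and which covers counting error only. For 1 gene, the smallest two-sided p of an exact permutation test over these 6 libraries is 0.10.

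The SCLC label was checked against 9 marker genes. *POU2F3*, the factor that defines the tuft cell-like form of SCLC, was at 25809 ± 1178 in parental and 27273 ± 535 in resistant cells (SD, n = 3), and the neuroendocrine genes *INSM1*, *CHGA* and *SYP* and the epithelial gene *EPCAM* were lower in resistant cells, while *YAP1* was higher. Of 6 fibroblast markers, *COL1A1*, *COL1A2* and *PDGFRA* were higher in resistant cells, *COL3A1* went from 18.0 to 10.6 and *LUM* from 6.27 to 4.74 without a call, and *DCN* was at or under 3 reads in all libraries. *PDGFRA*, with a parental mean of 8.98, passed the minimum mean only through its resistant values. The summed value of the 6 ranged from 155 to 197 in parental and from 458 to 641 in resistant libraries. Of 6 leukocyte markers, 4 were at or under 3 reads in every library, with sums between 15.2 and 32.6 in all libraries. The part of other cells in the results below was not tested, and in bulk RNA a change in cells cannot be told from a change per cell.

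Of the 36 genes, 34 passed the minimum mean, and 12 of these differed between the groups at an adjusted p under 0.05 by limma, 4 higher and 8 lower in resistant cells. That is 35.3% of the tested members, against a background of 37.7% of all genes tested (17.8% higher and 19.8% lower). The same 12 were the members whose groups did not overlap, against 49.9% of all genes (24.0% higher and 25.9% lower). The median log2 fold change was -0.06 for the members and -0.00086 for all genes, and the median absolute value was 0.18 and 0.30. Both shares of the members were under those of all genes. *CYP7B1*, 1 of the 4 higher, passed the minimum mean only through its resistant values and so had to differ, which leaves 11 members whose call does not follow from the minimum.

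**Figure D1:**
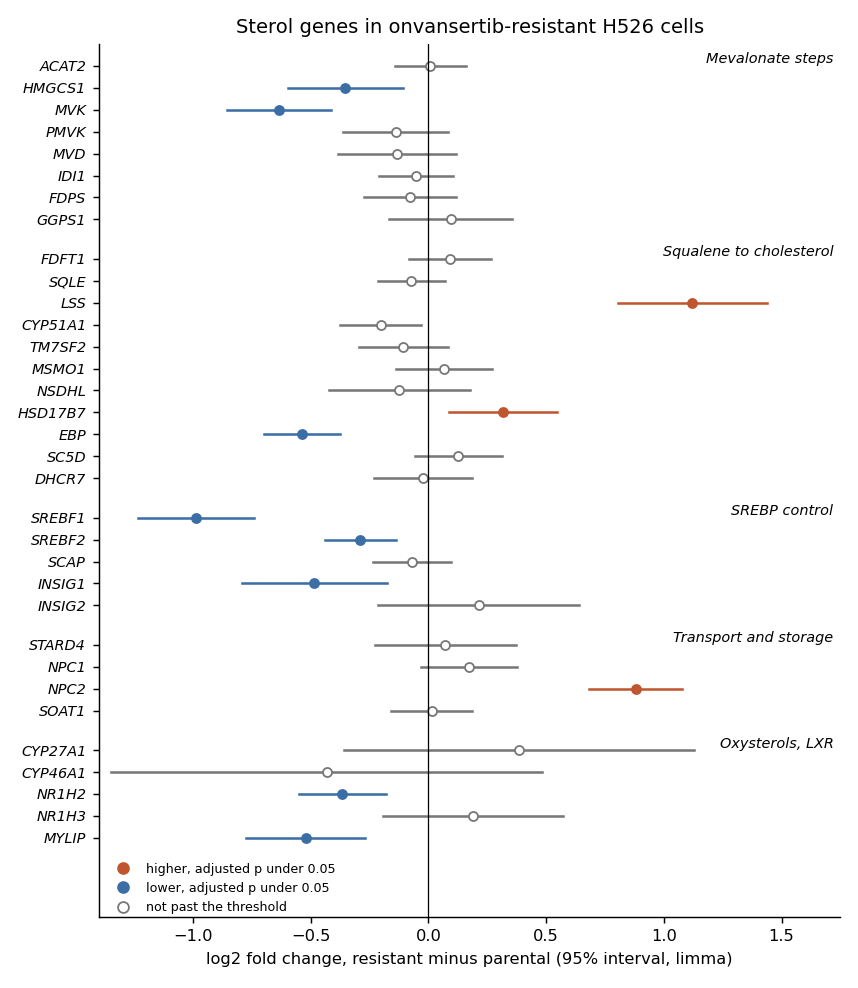
Log2 fold change of 33 tested sterol genes, resistant minus parental (x axis), with the 95% interval from limma, in role groups (y axis). *CYP7B1*, at 6.44, lies outside the axis and is left out. Filled points passed an adjusted p of 0.05; most synthesis enzymes sit near 0, with *LSS* to the right and *SREBF1* to the left.

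Of the 19 enzymes of the pathway 14 did not pass the test. In the first stretch, from acetyl-CoA to the isoprenoid units, 2 of 8 genes fell and 0 rose. In the second, from squalene synthase to cholesterol, 2 of 11 rose and 1 fell. Of all genes tested, 17.8% were higher and 19.8% lower. The values of the 19 enzymes added up to 62905 ± 4934 in parental and 63677 ± 2464 in resistant cells (SD, n = 3). *LSS* alone made up 3743 ± 845 of the parental and 8058 ± 1079 of the resistant sum. The log2 fold change was above 0 for 7 of the enzymes and below 0 for 12.

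*HMGCS1*, which condenses acetyl-CoA units to the precursor of mevalonate, was at 6409, 8725 and 6405 in parental libraries 1 to 3 and at 5307, 5870 and 5519 in resistant libraries 7 to 9. Parental library 2 stood above all others, and the groups did not overlap. The log2 fold change was -0.35 (SE 0.11, adjusted p = 0.0296 by limma), and -0.20 without parental library 2. The call was lost without resistant library 7 or 9 (adjusted p = 0.0882 and 0.0667 by limma).

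*MVK*, mevalonate kinase, fell further. It was at 1035, 1303 and 1216 in parental and at 724, 768 and 785 in resistant libraries, with a log2 fold change of -0.64 (SE 0.10, adjusted p = 0.000737 by limma). It lies on the long arm of chromosome 12 (109573255 to 109598125, GRCh38), where the 50 neighbouring tested genes had a median log2 fold change of -0.59 and 4% of them were above 0. The overlapping gene *MMAB*, on the other strand, went from a mean of 1010 to 498.

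The other 6 genes of the mevalonate stretch did not pass the test, with log2 fold changes between -0.14 and 0.09. These are *ACAT2*, *PMVK*, *MVD*, *IDI1*, *FDPS* and *GGPS1*. *FDPS*, which makes farnesyl diphosphate, had the highest level of them per kilobase of exon, and went from 7045 ± 906 to 6648 ± 321 (SD, n = 3), with a 95% interval of the log2 difference from -0.27 to 0.12. *ACAT2* shares 17.2% of its exon bases with *TCP1* on the other strand, and the library kit as named does not state that strand was kept, so its value is uncertain. *GGPS1* likewise shares 37.3% of its exon bases with ENSG00000285053 on its own strand. Other members overlap too. *CYP51A1* shares up to 68.2% and *EBP* 36.4% of exon bases with a gene on the same strand. On the other strand, *HMGCS1* shares 37.7%, *NR1H2* 22.1% and *FDPS* 18.6% with a gene there.

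*LSS*, lanosterol synthase, which closes the sterol rings, was the only synthesis enzyme more than 2-fold different. It was at 3146, 4710 and 3373 in parental and at 7201, 9271 and 7703 in resistant libraries, so that the lowest resistant value was above the highest parental one. The log2 fold change was 1.12 (SE 0.14, adjusted p = 0.000212 by limma). *LSS* lies at the end of chromosome 21 (46188141 to 46228824), where the neighbouring 50 genes had a median log2 fold change of 1.26 and 98% of them were above 0. After each library was centred on its neighbours, the log2 fold change of *LSS* was -0.16 (adjusted p = 0.438 by limma), which did not pass the test.

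*EBP*, the sterol isomerase that moves the double bond of the ring, fell from 2825, 2886 and 2807 to 1918, 1834 and 2129. The parental values were close together and well above the resistant ones, and the log2 fold change was -0.54 (SE 0.07, adjusted p = 0.000311 by limma). Its neighbours on chromosome X had a median of -0.09, and *EBP* kept its call after centring on them (-0.42, adjusted p = 0.00166 by limma).

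*HSD17B7*, the 3-ketosteroid reductase of the pathway, was at 573, 605 and 529 in parental and at 656, 690 and 784 in resistant libraries, a log2 fold change of 0.32 (SE 0.10, adjusted p = 0.0348 by limma). It was the weakest call among the members, and was lost when parental library 1 or 3 or resistant library 8 or 9 was left out (largest adjusted p = 0.128 by limma). Its transcribed copy *HSD17B7P2* had a mean of 17.8 in parental and 29.9 in resistant cells.

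The other 8 enzymes from squalene synthase onwards did not pass the test, with log2 fold changes between -0.20 and 0.13. *SQLE*, squalene epoxidase, a rate-limiting step, went from 7128 ± 369 to 6774 ± 304 (SD, n = 3; 95% interval of the log2 difference from -0.21 to 0.07). *DHCR7*, which makes the last reduction of one branch, went from 4868 ± 539 to 4784 ± 443 (SD, n = 3; interval from -0.23 to 0.19). *CYP51A1*, the lanosterol demethylase, came nearest to the threshold, at -0.20 (adjusted p = 0.0635 by limma), and passed it without parental library 3 (adjusted p = 0.0192 by limma). *SC5D*, a sterol desaturase, passed it without parental library 1 (0.21, adjusted p = 0.0421 by limma). *FDFT1*, which makes squalene, *TM7SF2*, *MSMO1* and *NSDHL* complete the list.

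Of 5 genes of SREBP control 3 fell, *SREBF1*, *SREBF2* and *INSIG1*, and 0 rose, against 19.8% lower and 17.8% higher of all genes. After centring on neighbours 1 of the 3, *SREBF1*, kept its call, with no share of all genes counted for that setting.

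*SREBF1*, whose products favour the genes of fatty acid synthesis, was at 5368, 6704 and 5915 in parental and at 2557, 3161 and 3375 in resistant libraries. All resistant values were far under the parental ones, and the log2 fold change of -0.99 (SE 0.11, adjusted p = 9.59e-05 by limma) was the largest fall among the members. Its neighbours on chromosome 17 (gene at 17810399 to 17837002) had a median of 0.00, and the log2 fold change after centring on them was -0.98.

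*SREBF2*, whose product favours the genes of cholesterol synthesis, was at 12460, 13827 and 12080 in parental and at 9928, 10903 and 10513 in resistant libraries. The groups did not overlap, and the log2 fold change was -0.29 (SE 0.07, adjusted p = 0.00755 by limma). It was smaller with quantile normalization (-0.13, adjusted p = 0.223 by limma). The ratio of *SREBF2* to *SREBF1*, both per kilobase of exon, was 2.19 ± 0.16 in parental and 3.56 ± 0.39 in resistant cells (SD, n = 3).

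*INSIG1*, a sterol-dependent anchor and itself an SREBP target, was at 6756, 9924 and 6666 in parental and at 4937, 5905 and 5593 in resistant libraries. As with *HMGCS1*, parental library 2 was highest, and the log2 fold change of -0.48 (SE 0.14, adjusted p = 0.0194 by limma) was -0.30 without that library. The neighbours of *INSIG1* near the end of chromosome 7 had the same median, -0.48, and *INSIG1* was at -0.06 after centring on them (adjusted p = 0.742 by limma). Without resistant library 7 the adjusted p was 0.069 by limma.

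*INSIG2*, its relative that is not an SREBP target, was at 592, 813 and 469 in parental and at 579, 832 and 732 in resistant libraries. These values overlapped and spread widely, with a log2 fold change of 0.21 (SE 0.19, 95% interval from -0.21 to 0.64). Per kilobase of exon, *INSIG1* was 13.6 ± 1.55 times as high as *INSIG2* in parental and 8.39 ± 0.78 times as high in resistant cells (SD, n = 3). *SCAP*, the escort protein, had a log2 fold change of -0.07 (95% interval from -0.24 to 0.10).

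The promoters of these regulators, of *HMGCS1* and of *LSS* are shown because the SREBP factors act through such sequences; 4 of the genes were lower and *LSS* was higher in resistant cells, and *LSS* and *INSIG1* moved with their neighbours. Each line gives the 180 bases before the start listed first in RefSeq (GRCh38.p14), 5′ to 3′ on the strand of the gene, with the sterol regulatory element (10 letters) and the CCAAT box (5 letters, ATTGG on the other strand) in capitals.
SREBF2, chr22:41832925-41833104, plus strand: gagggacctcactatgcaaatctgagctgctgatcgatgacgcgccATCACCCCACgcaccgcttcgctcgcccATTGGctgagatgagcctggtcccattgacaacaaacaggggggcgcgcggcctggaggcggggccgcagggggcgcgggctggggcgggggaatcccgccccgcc
SREBF1, chr17:17836987-17837166, minus strand: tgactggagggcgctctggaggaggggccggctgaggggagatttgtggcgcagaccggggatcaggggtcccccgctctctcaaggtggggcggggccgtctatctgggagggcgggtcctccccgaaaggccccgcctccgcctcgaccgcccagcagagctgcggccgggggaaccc
INSIG1, chr7:155297698-155297877, plus strand: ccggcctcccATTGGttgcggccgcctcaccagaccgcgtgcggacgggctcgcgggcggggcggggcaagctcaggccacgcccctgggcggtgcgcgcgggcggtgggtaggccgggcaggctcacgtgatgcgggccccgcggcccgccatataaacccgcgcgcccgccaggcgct
HMGCS1, chr5:43313413-43313592, minus strand: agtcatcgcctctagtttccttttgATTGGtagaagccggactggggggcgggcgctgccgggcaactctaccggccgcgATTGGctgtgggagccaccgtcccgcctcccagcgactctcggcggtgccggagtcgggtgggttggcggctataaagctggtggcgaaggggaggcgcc
LSS, chr21:46228775-46228954, minus strand: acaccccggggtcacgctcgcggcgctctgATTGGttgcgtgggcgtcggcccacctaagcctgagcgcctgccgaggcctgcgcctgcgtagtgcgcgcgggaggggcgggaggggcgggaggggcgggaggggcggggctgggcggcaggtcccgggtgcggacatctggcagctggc
Among the 31 members with a RefSeq promoter, in 43 windows from 250 bases before to 50 after a start, this element, spelled out by the first 10 capitals of its line, was found on either strand in *SREBF2* alone, 134 to 125 bases before its start. It was in 0.0586% of the 27305 genes of the table. The looser form TCACNCCAC, which overlaps it, was also found in *SREBF2* alone among the members, and in 1.39% of all genes. The CCAAT box, bound by NF-Y, a partner of SREBP, was in 22 of 31 members (71.0%), in 39.7% of all genes and in 42.8% of the genes tested here. The GC box GGGCGG was in 29 of 31 members and in 76.8% of the genes tested. The E-box CACGTG was in 4 of 31 members and in 12.4% of the genes tested. The LXR repeat, AGGTCA followed after 4 bases by AGGTCA, was in 0 of 31 members and in 0.0256% of all genes. The 180 bases before the start of *SREBF1* held neither capitalised motif. A match is a string of letters, and binding was not measured. Elements spelled otherwise or lying outside the windows were not searched for, so a member without a match may still hold one. *ACAT2*, *FDFT1*, *SQLE*, *CYP7B1* and *CYP46A1* were not searched.

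**Figure D2:**
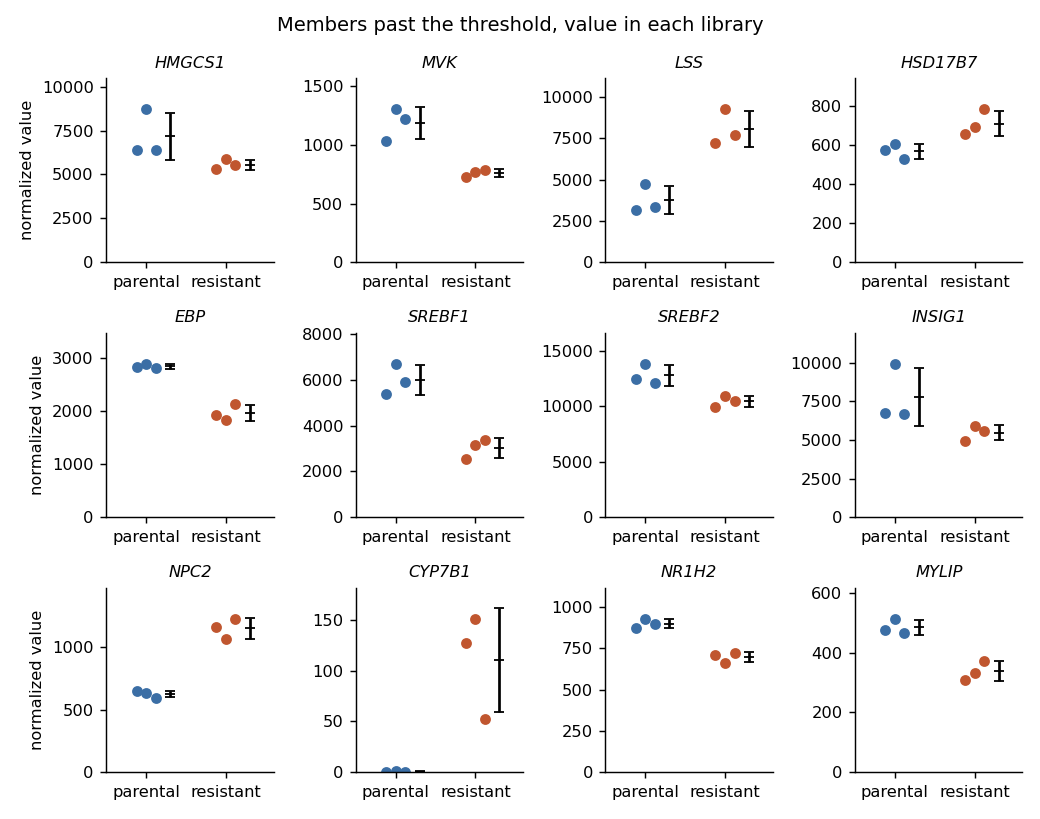
Normalized value (y axis, from 0) of the 12 members past the threshold in each of 3 parental and 3 resistant libraries (points), with the mean and SD in black. In every panel the points of the groups do not overlap; parental library 2 (middle point) is the highest parental one in every panel but that of *NPC2*.

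Of the 4 tested genes of sterol transport and storage 1 rose and 0 fell, against 17.8% higher and 19.8% lower of all genes. *NPC2*, the soluble protein that hands lysosomal cholesterol to NPC1, was at 646, 637 and 595 in parental and at 1165, 1067 and 1231 in resistant libraries. The resistant values were all far above the parental ones, with a log2 fold change of 0.88 (SE 0.09, adjusted p = 4.93e-05 by limma). On chromosome 14 (74476192 to 74494177) its neighbours had a median of 0.46 with 92% above 0, and *NPC2* rose beyond them (0.45 after centring, adjusted p = 0.00292 by limma). *NPC1*, the membrane protein of the pair, was at 766, 888 and 787 in parental and at 949, 859 and 940 in resistant libraries, which overlap, and had a log2 fold change of 0.17 (95% interval from -0.03 to 0.38). Per kilobase of exon, *NPC2* was 2.90 ± 0.24 times as high as *NPC1* in parental and 4.73 ± 0.16 times as high in resistant cells (SD, n = 3).

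*STARD4*, a cytosolic sterol carrier, and *SOAT1*, which esterifies cholesterol for storage, did not pass the test. *STARD4* ranged from 348 to 370 in parental and from 321 to 443 in resistant libraries. *SOAT1* was at 3044 ± 164 in parental and 3076 ± 248 in resistant cells (SD, n = 3). *NPC1L1*, the intestinal sterol uptake protein, had no value above 3 reads in any library and was not tested.

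Of the 6 tested genes of oxysterol metabolism and LXR 1 rose and 2 fell, against 17.8% higher and 19.8% lower of all genes. The 1 that rose had the largest difference among the members. *CYP7B1*, the oxysterol hydroxylase of the alternative bile acid pathway (chromosome 8, 64587763 to 64798737), was listed at 0 in parental libraries 1 and 3 and at 0.61 in library 2, under the value of 1 read. In resistant libraries 7 to 9 it was at 127, 151 and 52.5. Resistant library 9 was the lowest of the 3, but all were well above the parental values. Against the parental limit of 3 reads, *CYP7B1* was at least 39.0-fold higher in the mean of the resistant libraries. Since it entered the test only through its resistant values it had to differ, and no p is given for it. Its fitted log2 fold change of 6.44 depends on the pseudocount, being 3.45 with a pseudocount of 10 and 9.03 with one of 0.1. It had rank 3 from the highest log2 fold change among all genes tested with a pseudocount of 1. That rank rests on the same fold change and carries no test. Its 50 neighbours had a median of -0.05.

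The enzymes that make oxysterols did not pass the test or were not detected. *CYP27A1*, the mitochondrial sterol hydroxylase, was between 28.2 and 63.3 in parental and between 41.3 and 59.1 in resistant libraries, with a log2 fold change of 0.38 (95% interval from -0.36 to 1.13). *CH25H*, which makes an oxysterol in macrophages, was listed at 0 in all 6 libraries, where 3 reads stand for a value of up to 3.23. *CYP46A1*, the cholesterol hydroxylase of neurons, was between 10.2 and 18.3 in parental and between 9.73 and 12.4 in resistant libraries, with an interval from -1.35 to 0.48.

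The LXR receptors, which bind oxysterols, were both detected. *NR1H2*, the widely expressed LXR beta, fell from 874, 930 and 896 to 708, 664 and 723. The groups did not overlap, and the log2 fold change was -0.37 (SE 0.08, adjusted p = 0.00647 by limma), with neighbours on chromosome 19 at a median of -0.26. After centring on them it was -0.12 (adjusted p = 0.325 by limma). *NR1H3*, LXR alpha, was at 120, 159 and 161 in parental and at 174, 154 and 169 in resistant libraries, with a log2 fold change of 0.19 (95% interval from -0.19 to 0.57). Per kilobase of exon, *NR1H2* was 5.30 ± 0.78 times as high as *NR1H3* in parental and 3.58 ± 0.11 times as high in resistant cells (SD, n = 3).

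*MYLIP*, an LXR target that encodes a ubiquitin ligase for lipoprotein receptors, was at 476, 515 and 467 in parental and at 309, 334 and 374 in resistant libraries. It fell in every resistant library relative to every parental one, by 0.52 on the log2 scale (SE 0.11, adjusted p = 0.0052 by limma). Its neighbours on chromosome 6 had a median of 0.00, and the call held after centring (-0.52, adjusted p = 0.0106 by limma).

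**Figure D3:**
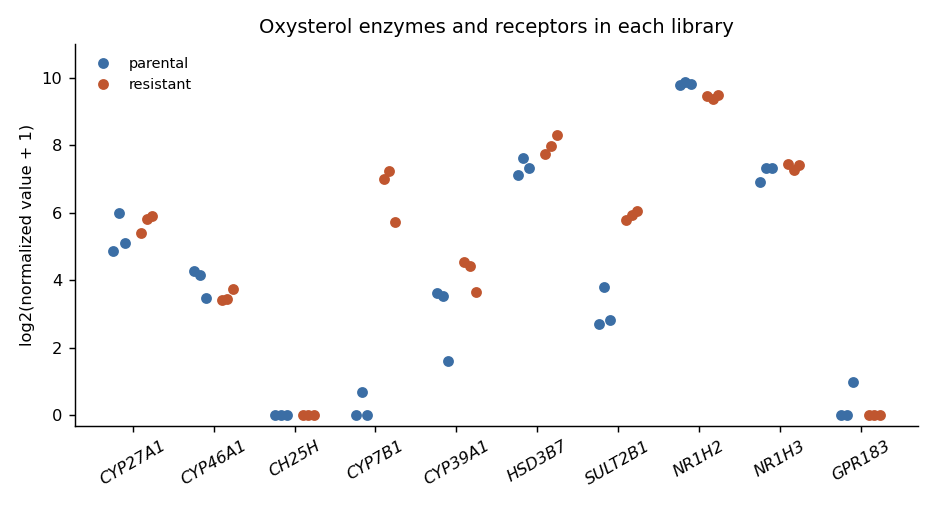
Log2(normalized value + 1) (y axis) of oxysterol enzymes and receptors (x axis) in 3 parental and 3 resistant libraries, 1 point each. *CYP7B1* is at or near 0 in the parental libraries and between 52.5 and 151 on the linear scale in the resistant ones. *HSD3B7* is also apart, as is *SULT2B1*, which like *CYP7B1* entered the test only through its resistant values. *CYP27A1* and *CYP46A1* overlap.

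Related genes were looked at in 6 lists that adjoin the members. Of their 80 genes 73 were tested, and 13 were higher and 13 lower in resistant cells (35.6%, against 37.7% of all genes). Their median log2 fold change was -0.01.

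In bile acid and oxysterol metabolism 2 of 6 tested genes rose and 0 fell, against 17.8% higher and 19.8% lower of all genes. *SULT2B1*, which sulfates cholesterol and oxysterols, was at 5.49, 12.9 and 6.04 in parental and at 53.7, 59.9 and 65.2 in resistant libraries, a log2 fold change of 2.81 (SE 0.38). Its parental mean of 8.14 was under the minimum of 10, so it entered the test only through its resistant values and its call is not used as support. *HSD3B7*, which acts on the products of CYP7B1, was at 139, 195 and 159 in parental and at 211, 254 and 316 in resistant libraries, which is higher by 0.66 on the log2 scale (SE 0.19, adjusted p = 0.02 by limma). The values of *HSD3B7* were higher in each resistant library than in any parental one, as were those of 24% of all genes tested. *CYP39A1*, a further oxysterol hydroxylase, went from a mean of 8.02 to 18.1 and did not pass the test (adjusted p = 0.12 by limma). *CYP7A1*, *CYP8B1*, *CYP11A1* and *AKR1D1* were listed at 0 in all libraries. *GPR183*, a receptor for products of CYP7B1, was at or under 3 reads in all 6 libraries. *AMACR*, *SCP2* and *HSD17B4* had log2 fold changes between -0.29 and 0.01 and did not pass the test, and *ACOX2* was under the minimum mean.

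Of 11 genes that process or turn over SREBP and sterol sensors, 3 rose and 2 fell (27.3% and 18.2%, against 17.8% and 19.8% of all genes). *UBE2G2*, a ubiquitin-conjugating enzyme of the endoplasmic reticulum, had the smallest p, with a log2 fold change of 1.27. Like *LSS* it lies on chromosome 21, among neighbours with a median of 1.25. *MBTPS1* and *MBTPS2*, the proteases that release active SREBP, rose by 0.29 and 0.38 on the log2 scale (adjusted p = 0.0178 and 0.0123 by limma). *SPRING1*, which helps to activate the first of these proteases, fell by 0.51 on the log2 scale (adjusted p = 0.0254 by limma), among neighbours with a median of -0.44. *MARCHF6*, a ubiquitin ligase that turns over squalene epoxidase, fell by 0.66 on the log2 scale, among neighbours on chromosome 5 with a median of -0.52.

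Fatty acid synthesis, which is under *SREBF1* and LXR, had 2 genes higher and 2 lower of 14 (14.3% each, against 17.8% and 19.8% of all genes). *FADS2*, a desaturase, fell from 17184 ± 1454 to 12176 ± 451, and *SCD*, the stearoyl-CoA desaturase, fell by 0.40 on the log2 scale (adjusted p = 0.0101 by limma). In the other direction *ACSS2*, which makes acetyl-CoA from acetate, rose from 411 ± 132 to 899 ± 74.6, and *LPIN1*, a phosphatidate phosphatase, from 1721 ± 85.6 to 2776 ± 132 (SD, n = 3). *FASN*, fatty acid synthase, was at a log2 fold change of 0.15 (SE 0.09, 95% interval from -0.06 to 0.36) and did not pass the test.

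Of 22 tested genes of sterol binding and transport, 3 rose and 4 fell (13.6% and 18.2%, against 17.8% and 19.8% of all genes). *GRAMD1B*, which moves cholesterol from the plasma membrane to the endoplasmic reticulum, rose from 1623 ± 291 to 2876 ± 110 (SD, n = 3), and its relative *GRAMD1A* rose by 0.30 on the log2 scale (adjusted p = 0.00444 by limma). The oxysterol-binding proteins *OSBPL8* and *OSBPL6* fell by 0.90 and 0.86 on the log2 scale, among neighbours with medians of -0.44 and -0.13. Of 7 accessory genes of sterol synthesis, 1 rose and 4 fell (14.3% and 57.1%, against 17.8% and 19.8% of all genes). *POR*, the reductase that supplies electrons to CYP51A1, CYP7B1 and SQLE, was at 2822 ± 75.8 in parental and 1478 ± 194 in resistant cells (SD, n = 3) and fell by 0.94 on the log2 scale (adjusted p = 4.1e-05 by limma), among neighbours with a median of -0.43. *AACS* fell by 0.66 and *ERG28* rose by 0.55 on the log2 scale, each with neighbours moved the same way (medians of -0.58 and 0.37). Of 13 genes of the isoprenoid branch, which attach or lengthen isoprenoids, 2 rose and 1 fell (15.4% and 7.69%, against 17.8% and 19.8% of all genes). *RABGGTB*, a subunit of an enzyme that prenylates Rab proteins, had a log2 fold change of -0.43, and *COQ2* and *FNTB* had ones of 0.54 and 0.37. *COQ2* and *FNTB* lost their calls after centring on neighbours, with log2 fold changes of 0.38 and -0.09 (adjusted p = 0.0955 and 0.521 by limma).

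After centring on the 50 nearest tested genes, 5 of the 12 members kept their call, *EBP*, *SREBF1*, *NPC2*, *CYP7B1* and *MYLIP*, and 7 did not. Of the 7, *LSS*, *MVK*, *INSIG1* and *NR1H2* had neighbours with medians of 1.26, -0.59, -0.48 and -0.26, and their log2 fold changes after centring were -0.16, -0.07, -0.06 and -0.12. *HMGCS1*, *HSD17B7* and *SREBF2* had neighbours with medians of -0.04, 0.01 and -0.09 and kept log2 fold changes of -0.32, 0.29 and -0.21 after centring, close to those before it (adjusted p = 0.0571, 0.0766 and 0.0785 by limma). The share of all genes called after centring was not counted, so the 5 and 7 have no background beside them. Gene copies were not measured.

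**Figure D4:**
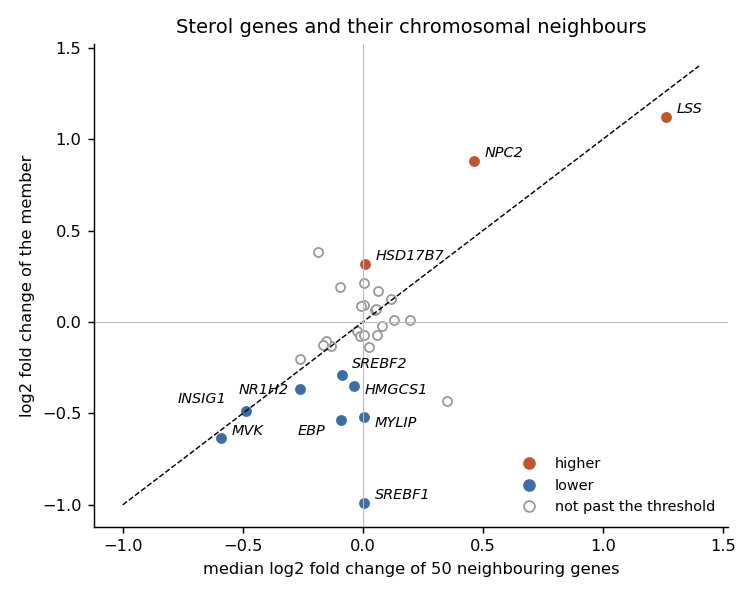
Log2 fold change of each of 33 tested members (y axis) against the median log2 fold change of its 50 neighbouring tested genes (x axis); *CYP7B1* is left out and the dashed line marks equal values. *LSS*, *MVK* and *INSIG1* lie close to the line, and *SREBF1*, *MYLIP* and *EBP* lie far under it.

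The members also varied among themselves within a group. Parental library 2 had the highest parental value in 13 of the 19 synthesis enzymes (68.4%) and in 17 of 24 with the genes of SREBP control added (70.8%), whereas it was the highest parental library in 33.3% of all genes tested. Resistant library 9 was the highest resistant one in 11 of the 19 enzymes (57.9%), against 34.5% of all genes. These counts were chosen after the values were seen and carry no test. In parental library 2 the 19 enzymes lay at a median of 0.09 above their parental means on the log2 scale.

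**Figure D5:**
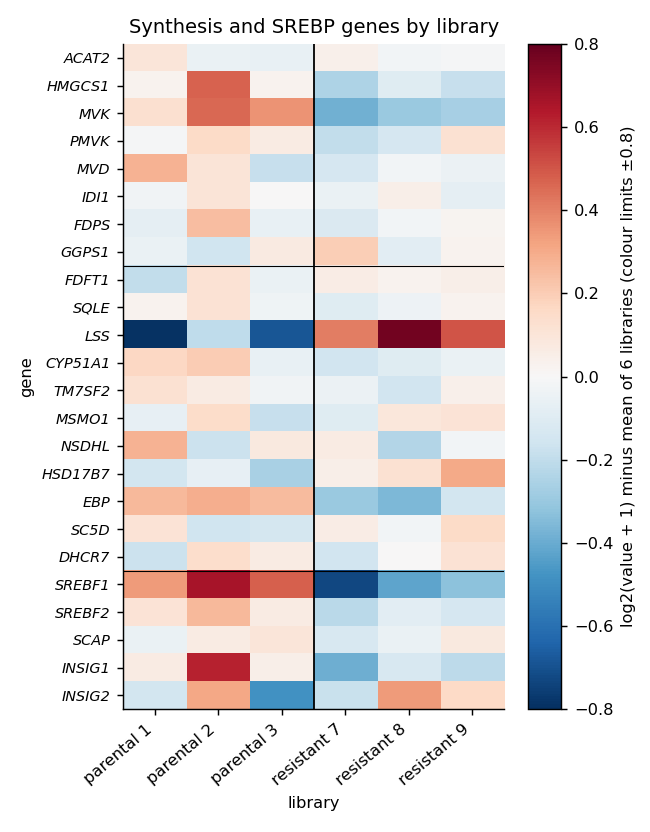
Deviation of log2(value + 1) from the mean of the 6 libraries (colour) for 19 synthesis enzymes and 5 genes of SREBP control (rows, in pathway order) in each library (columns). Parental library 2 is redder than parental libraries 1 and 3 in most rows; *LSS* runs from blue in the parental to red in the resistant libraries.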

How the data were processed

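RNA of 3 parental and 3 resistant H526 libraries was analysed. The authors trimmed reads with Trimmomatic 0.38, aligned and quantified them with RSEM 1.3.1 on GRCh38 with Gencode v43, and deposited gene counts normalized with DESeq2 (1.30.0 in the submitters' processing notes), a signal that is never negative, with no filter and libraries kept apart. Between 49.7% and 62.6% of low values lay within 0.05 reads of a whole multiple of 1 read, so whole reads were not recovered and the study's count test was not run. Copies of 47 pseudoautosomal genes were left out, and 62639 of 62710 rows were matched to symbols and GRCh38 positions in Gencode v44. Levels per kilobase use the merged exons of a gene.

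limma 3.58.1 (R 4.3.3) was run with an intensity trend and group as the only term, and was tested on simulated data. The members and lists were chosen with earlier results of these data known. By rule, all members are accounted for, with each library's value for members past the threshold and for 4 pairs of relatives, while each related list is represented by its 3 called genes of smallest p; *MBTPS1*, *SCD*, *FASN*, *SPRING1*, *GRAMD1A*, *CYP39A1*, *AMACR*, *SCP2*, *HSD17B4* and the undetected genes were named after their values were seen. The fold change of each tested member and the counts of members and related genes called were also recomputed without the trend, with TMM scaling or quantile normalization, with pseudocounts of 0.1 and 10, with a minimum mean of 50 or none, after centring on the 50 neighbouring tested genes (25 on each side), and with each library left out. Python 3.11.15, pandas 2.3.3 and matplotlib 3.10.9 were used.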

Additional observations from a re-analysis of the deposited data

How the results depend on the processing

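No paired analysis was possible because the parental libraries (1 to 3) and the resistant libraries (7 to 9) share no number, and no source used here says which harvests belong together. Of the 12 calls, those of *SREBF1*, *EBP*, *NPC2* and *MYLIP* held under all 14 alternatives, as did that of *CYP7B1*, which had to differ once it passed the minimum mean. The members lower in resistant cells numbered 8, but 5 without the trend, where *HMGCS1*, *INSIG1* and *SREBF2* lost their calls, and 3 with centring on neighbours. Those higher numbered 4, but 2 with centring, and the related genes higher numbered 13, but 8 with centring. *HSD17B7*, a member higher, also lost its call without the trend (adjusted p = 0.0618 by limma). Quantile normalization removed the calls of *HMGCS1* and *SREBF2* (adjusted p = 0.0839 and 0.223 by limma). With 1 library left out, members higher ranged from 3 to 4 and members lower from 6 to 9. Related genes higher ranged from 9 to 12 and related genes lower from 10 to 14. The share of all genes called was counted for the main setting only, so these changes in number have no background beside them. The causes were not tested.

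*LSS* was the only called member to change direction, to -0.16 with centring. Among members not called, direction changed under centring for *ACAT2* (-0.081), *CYP51A1* (0.10), *TM7SF2* (0.045), *NSDHL* (0.065) and *SOAT1* (-0.12), under TMM scaling for *ACAT2* (-0.0011) and under quantile normalization for *DHCR7* (0.019). With 1 library left out, log2 fold changes ran from -0.018 to 0.060 for *ACAT2*, -0.034 to 0.080 for *SOAT1*, -0.13 to 0.027 for *FDPS*, -0.12 to 0.047 for *DHCR7*, -0.0072 to 0.16 for *MSMO1* and -0.050 to 0.18 for *STARD4*.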
